A study of Mus musculus with 2 samples.

Results

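The miR-30 family was examined in heart tissue by microRNA-seq, the sequencing of RNA in the size range of mature miRNAs. Its members are the hairpin genes Mir30a, Mir30b, Mir30c-1, Mir30c-2, Mir30d, Mir30e and Mir30f, 7 of the 2202 miRNA genes in each deposited table, found by matching the gene identifiers to their names in GENCODE M21. The tissue came from male 5xFAD/CAST adults of 8 to 10 months. The labels form a single group of 2 libraries, numbered replicates 2 and 1, and give no second condition to set it against. 5xFAD mice carry human amyloid precursor and presenilin transgenes driven by the neuronal Thy1 promoter, and CAST is a wild-derived inbred strain. The labels name the strain without saying which transgenes these animals carried. The replicates have separate biosample entries and share a donor entry, so a difference between them may be technical.

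A miRNA gene is transcribed as part of a longer RNA, cut to a hairpin, and cut again to a short duplex with a 5p and a 3p arm. An Argonaute protein holds an arm and is guided to target messenger RNAs mainly by the seed, bases 2 to 8 of the arm. The miR-30 5p arms share a seed, so they are expected to recognise many of the same targets. In heart, miR-30 is known as a repressor of connective tissue growth factor, a profibrotic protein, and in other tissues it is known for roles in autophagy and in kidney epithelium.

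The mature arms are printed because the shared seed defines the family and the remaining bases decide which hairpins can be told apart. The sequences come from a table of RefSeq miRNAs on build GRCm38.p6, in which 5 of the 7 members were matched, Mir30a, Mir30c-1, Mir30c-2, Mir30e and, as an arm alone, Mir30f. Mir30b and Mir30d were not matched, so the sequence comparisons below do not cover them. Each arm is written 5′ to 3′ with its seed in capitals. The 5p arm of the seed relative Mir384, a gene on chromosome X, is set beside them.
miR-30a-5p: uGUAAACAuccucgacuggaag
miR-30e-5p: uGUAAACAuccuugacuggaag
miR-30c-5p: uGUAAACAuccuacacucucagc
miR-384-5p: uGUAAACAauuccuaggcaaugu
miR-30a-3p: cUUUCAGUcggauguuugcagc
miR-30e-3p: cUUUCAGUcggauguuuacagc
miR-30c-1-3p: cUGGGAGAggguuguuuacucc
miR-30c-2-3p: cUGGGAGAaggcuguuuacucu
miR-30f: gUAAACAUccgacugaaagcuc

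Among the 1679 mature names in the RefSeq table, which do not include those of Mir30b and Mir30d, the 5p seed GUAAACA was held by 4, those of miR-30a, miR-30c, miR-30e and miR-384. Beyond the seed, the miR-30a and miR-30e 5p arms differed by 1 base, C13U, counted from 1 at the 5′ end of miR-30a-5p. The miR-30a and miR-30c 5p arms shared their first 12 bases and differed at 5 positions, C13A, G14C, G18C, G19U and A20C. The 3p arms fell under a pair of seeds, UUUCAGU in miR-30a and miR-30e and UGGGAGA in both miR-30c hairpins, the second of which also occurs in the 5p arm of Mir6958. The Mir30f arm starts a base later in the same motif, and its seed UAAACAU was held by no other mature name in the table.

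The hairpins show why the miR-30c counts are uncertain. They are written 5′ to 3′ with both mature arms in capitals.
Mir30a: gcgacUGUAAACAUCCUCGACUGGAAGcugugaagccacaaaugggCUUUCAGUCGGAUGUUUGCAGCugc
Mir30e: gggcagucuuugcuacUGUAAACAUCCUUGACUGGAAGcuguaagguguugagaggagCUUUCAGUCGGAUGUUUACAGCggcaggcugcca
Mir30c-1: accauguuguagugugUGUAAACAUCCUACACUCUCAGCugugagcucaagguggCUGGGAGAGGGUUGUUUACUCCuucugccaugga
Mir30c-2: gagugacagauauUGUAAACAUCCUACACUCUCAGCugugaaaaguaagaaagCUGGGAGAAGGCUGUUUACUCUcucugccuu

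Mir30c-1 and Mir30c-2 carry the same 5p arm and share an unbroken stretch of 28 nt. A read that lies wholly inside that stretch matches both hairpins, and reads aligned to several places were given to no gene. The counts of Mir30c-1 and Mir30c-2 are therefore uncertain throughout, and how many of their reads fell in that class was not tested. Mir30a and Mir30e shared at most 18 nt with any other of the 1005 hairpins in the RefSeq table, in each case with the other. Neither was compared with Mir30b or Mir30d. Each of their arms occurred in 1 of these hairpins only.

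The family sits at 3 places in the genome (mm10, the build the deposited description names). On chromosome 1, plus strand, Mir30a (ENSMUSG00000065405.3, chr1:23272269-23272339) lies in no other annotated gene, and Mir30c-2 (ENSMUSG00000065567.1, chr1:23291701-23291784) lies in an exon of the long noncoding RNA Gm27028. On chromosome 15, minus strand, Mir30b (ENSMUSG00000065476.2, chr15:68337415-68337510) overlaps an exon of the noncoding transcript Gm26621, and Mir30d (ENSMUSG00000065437.1, chr15:68341208-68341289) overlaps exons of the noncoding genes Gm37296 and Gm20732. On chromosome 4, minus strand, Mir30c-1 (ENSMUSG00000065490.1, chr4:120769534-120769622) and Mir30e (ENSMUSG00000065409.1, chr4:120772606-120772697) lie in introns of Nfyc, which encodes a subunit of the transcription factor NF-Y. Mir30f (ENSMUSG00000105585.1) is annotated at the same bases as Mir30e on the plus strand. The gap between hairpins is 2983 bp on chromosome 4, 3697 bp on chromosome 15 and 19361 bp on chromosome 1. No other miRNA gene of the tables lies within 50000 bp of any member.

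Levels are CPM, the deposited count on the sense strand scaled by its library's total of sense counts, 5058613 in replicate 2 and 3889280 in replicate 1. Reads aligned to several places made up 46.8% and 42.3% of all reads in replicates 2 and 1, against 35.6% and 35.9% counted at a miRNA gene on the sense strand. The tissue label was set against marker genes of heart muscle, of which 6 of 7 were detected, meaning at least 10 counts in both libraries. They held 0.748% of sense counts in replicate 2 and 0.678% in replicate 1, led by Mir499 and Mir208a, the miRNAs of myosin introns. These leading markers differed in opposite directions, Mir499 being 2.34-fold higher and Mir208a 2.40-fold lower in replicate 2. The heart muscle list also holds copies of miR-1a and of miR-133a, and reads matching more than a single copy were given to no gene. The share of the heart muscle markers may therefore be understated, and by how much was not tested. Marker lists of other cell types also held counts. Endothelial Mir126a had 8.78% and 8.71%, smooth muscle markers 4.17% and 3.01%, leukocyte markers 0.50% and 0.68%, erythroid markers 0.124% and 0.165% and epithelial markers 0.0347% and 0.0184%, in replicates 2 and 1. Of 7 neuronal markers 1 was detected, Mir137 with 88 and 54 counts in replicates 2 and 1, and 4 were at 0 in both libraries. The neuronal markers other than Mir137 are copies of miR-9 and miR-124a, and reads that match several copies belong to no gene. Their low counts therefore cannot show that these miRNAs were absent. Liver Mir122 held 0.0027% and 0.0029%. In tissue, fewer cells of a type and less RNA per cell cannot be told apart, and the part that any cell type had in the miR-30 levels was not tested.

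Of the 7 members 6 were detected, and together they held 2.70% of sense counts in both libraries. The sums were 136414 counts or 26967 CPM in replicate 2 and 105134 counts or 27032 CPM in replicate 1, a mean of 26999 ± 46.0 CPM (SD, n = 2). With library sizes scaled by TMM, the trimmed mean of M values, the sum was 1.08-fold higher in replicate 2.

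Mir30a had the highest mean level of the family, 9364 CPM in replicate 2 and 9099 CPM in replicate 1, or 9232 ± 187 CPM (SD, n = 2). It ranked 16 among the 325 detected miRNA genes by mean level. Mir30d stood at 11007 CPM in replicate 2 and 7026 CPM in replicate 1, or 9016 ± 2815 CPM, at rank 17. Mir30e stood at 4518 CPM in replicate 2 and 8718 CPM in replicate 1, or 6618 ± 2970 CPM, at rank 22. The order of these leading hairpins was Mir30d, Mir30a, Mir30e in replicate 2 and Mir30a, Mir30e, Mir30d in replicate 1, so their means do not rank them beyond the spread.

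The other detected hairpins were far lower and kept the same order in both libraries. Mir30c-2 had 1187 CPM in replicate 2 and 1378 CPM in replicate 1, or 1283 ± 135 CPM, at rank 54. Mir30c-1 had 594 and 515 CPM in replicates 2 and 1, or 554 ± 56.2 CPM, at rank 77. Mir30b had 295 CPM in each library, with an SD of 0.063 CPM, at rank 92. The ranges of Mir30e, Mir30c-2, Mir30c-1 and Mir30b did not overlap with each other, and the mean of Mir30e was 5.16 times that of Mir30c-2.

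**Figure D1:**
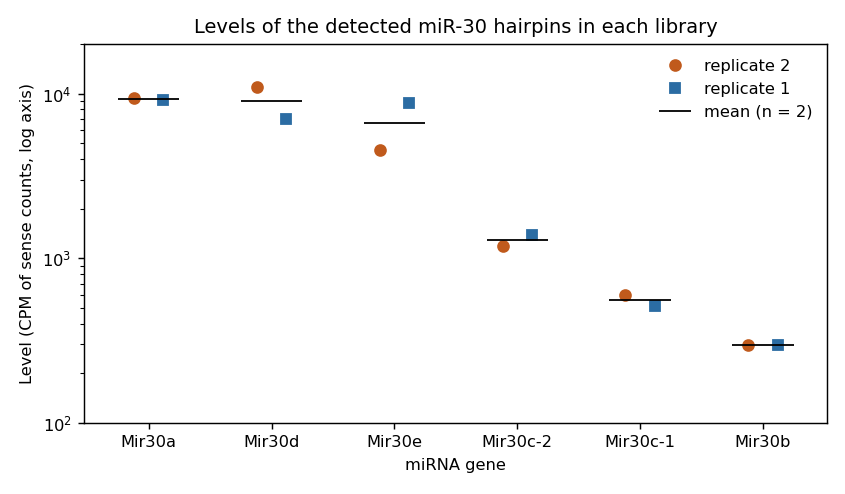
Level of each detected miR-30 hairpin in CPM of sense counts on a log axis, with a circle for replicate 2, a square for replicate 1 and a line for their mean. Mir30a, Mir30d and Mir30e lie between 4518 and 11007 CPM and change order between the libraries, while Mir30c-2, Mir30c-1 and Mir30b lie between 295 and 1378 CPM in the same order in both.

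The miR-30 counts came almost wholly from the hairpins Mir30a, Mir30d and Mir30e. Together they held 92.3% of the family's counts in replicate 2, with a 95% Clopper-Pearson interval of 92.2 to 92.4, and 91.9% in replicate 1, with 91.7 to 92.1. Mir30b, Mir30c-1 and Mir30c-2 together held 7.70% in replicate 2 (7.56 to 7.85) and 8.10% in replicate 1 (7.93 to 8.26). The intervals cover counting error only, since no molecular identifiers are recorded in the sources used here. The smaller share may be understated through the stretch that Mir30c-1 and Mir30c-2 share.

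Within the leading group, Mir30a held a like share of the family in both libraries, and the shares of Mir30d and Mir30e differed in opposite directions. Mir30a held 34.7% of miR-30 counts in replicate 2 and 33.7% in replicate 1. Mir30d held 40.8% in replicate 2 (40.6 to 41.1) and 26.0% in replicate 1 (25.7 to 26.3). Mir30e held 16.8% in replicate 2 (16.6 to 17.0) and 32.3% in replicate 1 (32.0 to 32.5). By place in the genome, the chromosome 15 hairpins held 41.9% and 27.1% of the family in replicates 2 and 1, those on chromosome 4 held 19.0% and 34.2%, and those on chromosome 1 held 39.1% and 38.8%.

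**Figure D2:**
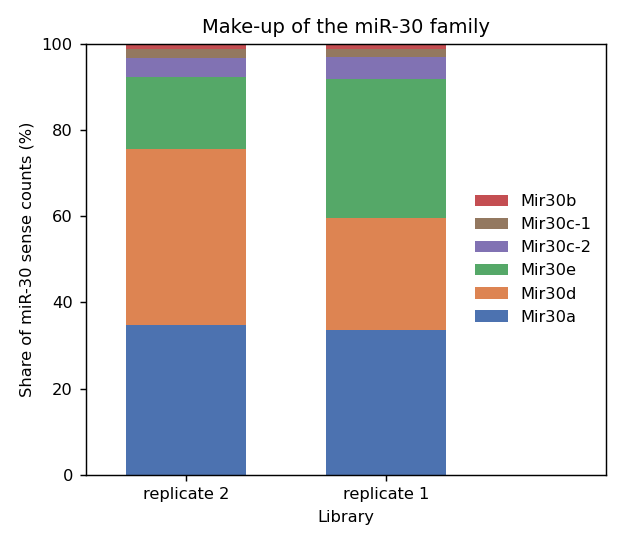
Share of the family's sense counts held by each hairpin, in percent, as stacked bars for replicate 2 and replicate 1. Mir30d takes 40.8% in replicate 2 and 26.0% in replicate 1, Mir30e takes 16.8% and 32.3%, and the share of Mir30a is 34.7% and 33.7%.

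Between the libraries, 5 of the 6 tested miR-30 hairpins differed past counting error, where 45.4% of all 412 tested genes did. Each gene with a sum of at least 10 counts was set against the ratio of TMM-scaled library sizes in an exact binomial test, two-sided, with Benjamini-Hochberg adjustment over all tested genes and a threshold of 0.05. The test compares these libraries, not conditions. Of the hairpins, 3 were higher in replicate 2, where 22.6% of all tested genes were called higher, and 2 were lower, where 22.8% were. Deeply counted genes are called more often. Every detected member averaged 1000 counts or more, and of the 98 tested genes at that depth 88.8% were called. The share of miR-30 hairpins called is thus near that of genes of like depth. The median log2 ratio of the 6 hairpins was 0.14, against -0.0077 over all tested genes. Their median absolute log2 ratio was 0.25, against 0.39 over all tested genes and 0.29 over those averaging 1000 counts or more.

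The largest differences were those of Mir30d and Mir30e. Mir30d, the main hairpin of chromosome 15, had 55680 counts in replicate 2 and 27326 in replicate 1. After TMM scaling and with 1 CPM added to both levels, it was 1.70-fold higher in replicate 2, a log2 ratio of 0.77 (95% interval 0.75 to 0.79). Mir30e, the Nfyc hairpin that differs from Mir30a by 1 base in its 5p arm, had 22856 counts in replicate 2 and 33907 in replicate 1. It was 1.77-fold lower in replicate 2, a log2 ratio of -0.83 (-0.85 to -0.80). For both, the adjusted p of the exact binomial test was too small for the software to represent. Absolute log2 ratios larger than that of Mir30e were found in 57 of the 325 detected genes, and larger than that of Mir30d in 63.

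None of the 6 tested miR-30 hairpins differed 2-fold or more. At that size 11.9% of all tested genes and 15.3% of those averaging 1000 counts or more were called. With only 6 hairpins, finding none is not far from the share at like depth. Mir30a had 47371 counts in replicate 2 and 35390 in replicate 1, a 1.12-fold higher level in replicate 2 (log2 ratio 0.16, exact binomial test, adjusted p = 3.85e-57). Mir30c-1 had 3006 and 2002 counts in replicates 2 and 1, and was 1.25-fold higher in replicate 2 (log2 ratio 0.33, adjusted p = 1.24e-14). Mir30c-2, which carries the same 5p arm, had 6007 and 5360 counts, and was 1.07-fold lower in replicate 2 (log2 ratio -0.094, adjusted p = 0.00152). The call of Mir30c-2 was lost in the count column that ignores strand, where its adjusted p was 0.175, against 1.38e-14 to 0.0138 under the other alternatives. With total-count scaling the log2 ratio was 0.041 for Mir30a, 0.21 for Mir30c-1 and -0.21 for Mir30c-2, all still called in the same direction. Mir30b had 1494 and 1149 counts and did not pass the test (log2 ratio 0.12, 95% interval 0.0087 to 0.23, adjusted p = 0.0706). The intervals of log2 ratios are not adjusted for the number of genes tested, whereas the calls are. For Mir30b the scaling decided the sign and the call. Its log2 ratio was -0.00044 with total-count scaling and 0.13 with DESeq2 size factors, the second with an adjusted p of 0.0484. Over all alternatives its adjusted p ran between 0.00774 and 1.

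**Figure D3:**
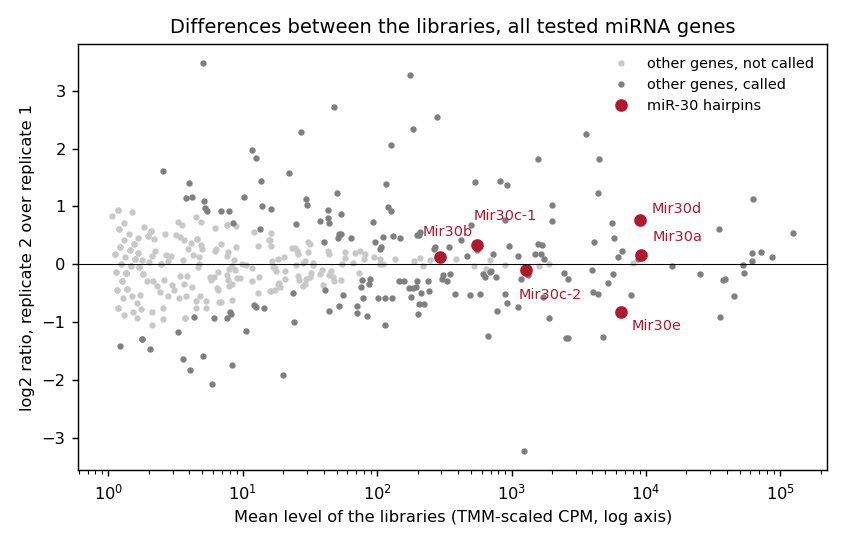
Log2 ratio of replicate 2 over replicate 1 against the mean TMM-scaled level in CPM on a log axis, for all 412 tested miRNA genes, with the 6 tested miR-30 hairpins in red and other genes in dark grey if called and light grey if not. Mir30d at 0.77 and Mir30e at -0.83 lie on opposite sides of 0, and the other 4 hairpins lie between -0.094 and 0.33.

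Hairpins of the same locus were not counted in a fixed ratio, which was plainest in the Nfyc intron. There Mir30e had 7.60 counts for each count of Mir30c-1 in replicate 2, with a 95% exact interval of 7.32 to 7.90, and 16.9 in replicate 1, with 16.2 to 17.7. Mir30e was lower and Mir30c-1 higher in replicate 2, and both were called. On chromosome 15, Mir30d had 37.3 counts for each count of Mir30b in replicate 2 (35.4 to 39.3) and 23.8 in replicate 1 (22.4 to 25.3). On chromosome 1, Mir30a had 7.89 counts for each count of Mir30c-2 in replicate 2 (7.68 to 8.10) and 6.60 in replicate 1 (6.42 to 6.80). The hairpins on chromosome 1 lie farther apart than the 10 kb that defined a clustered pair, and their ratio was added after the data were seen. Reads inside the stretch that Mir30c-1 and Mir30c-2 share were given to no gene, so the ratios to these hairpins may be overstated. Reads aligned to several places made up 46.8% and 42.3% of all reads in replicates 2 and 1. How far such reads shifted these ratios in each library was not tested. The ratio of Mir30d to Mir30b does not use these counts. In each locus the same hairpin led in both libraries, and the intervals of the libraries did not overlap.

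Such gaps between neighbours were not confined to the miR-30 loci. Among 88 pairs of adjacent detected hairpins on the same strand with a gap of at most 10 kb, the log2 ratios of the neighbours differed by a median of 0.48. Mir30e and Mir30c-1 differed by 1.15, a value that rests on the uncertain counts of Mir30c-1, and 14 of the 88 pairs differed by more. Mir30d and Mir30b differed by 0.65, and 31 pairs differed by more. The pairs were not matched for depth, and some hold hairpins of few counts, whose ratios carry more counting error. How many pairs of like depth differed by more was not tested. Both neighbours were called in 33 pairs, and in 16 of these they were called in opposite directions.

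**Figure D4:**
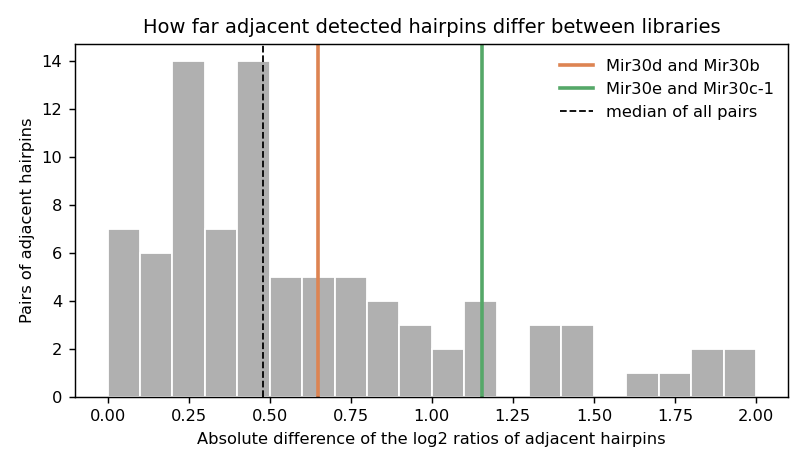
Histogram of the absolute difference between the log2 ratios (replicate 2 over replicate 1) of adjacent detected hairpins, in number of pairs out of 88. The line for Mir30e and Mir30c-1 stands at 1.15 and that for Mir30d and Mir30b at 0.65, both above the dashed median of 0.48.

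Mir30f, annotated on the strand opposite Mir30e, had 0 sense counts in both libraries. A count of 0 allows up to 3 counts, or 0.593 CPM in replicate 2 and 0.771 CPM in replicate 1. Its annotated arm, printed above, lies within the reverse complement of the Mir30e hairpin over all its 22 bases, and 19 of them lie opposite the miR-30e 3p arm. For comparison, the reverse complement of that 3p arm reads as follows.
miR-30e-3p, reverse complement: gcuguaaacauccgacugaaag

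The opposite-strand column held 22856 counts at Mir30f in replicate 2 and 33907 in replicate 1, the same as the sense counts of Mir30e. This equality follows from the annotation, which places both genes at the same bases on opposite strands. At the other 5 hairpins, where no miRNA gene is annotated on the other strand, the opposite-strand column held 0 counts in both libraries, beside 113558 sense counts in replicate 2 and 71227 in replicate 1. A count of 0 allows up to 0.0026% and 0.0042% of those sense counts. In the column that ignores strand, Mir30e and Mir30f were both at 0. The Mir30e sense counts equal 1.79% of the reads set aside there as ambiguous in replicate 2 and 3.95% in replicate 1. A table built from that column would list Mir30e at 0, although it ranked 22 by sense counts.

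**Figure D5:**
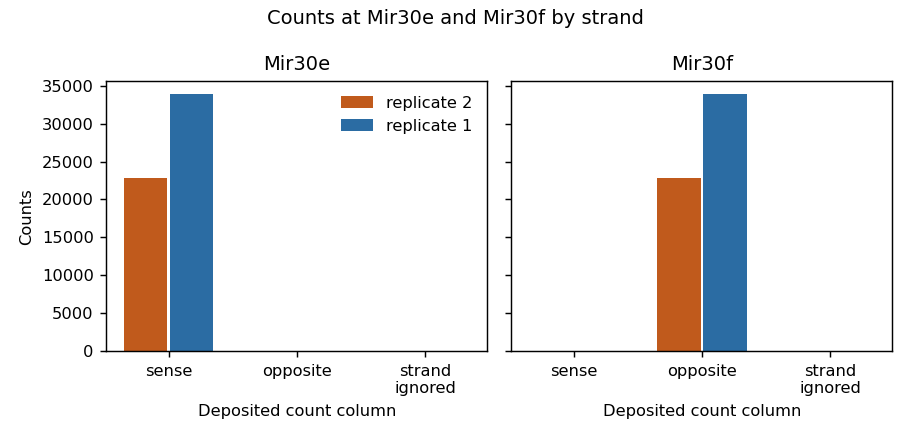
Counts at Mir30e and Mir30f in the 3 deposited columns, sense strand, opposite strand and strand ignored, with bars for replicate 2 and replicate 1. The bars of 22856 and 33907 counts stand in the sense column of Mir30e and in the opposite-strand column of Mir30f, and both genes are at 0 in the column that ignores strand.

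Mir384, the other gene of the RefSeq table whose 5p arm holds the miR-30 seed, had 2 counts in each library, below the detection minimum of 10 counts. The Mir30 hairpins summed to 136414 counts in replicate 2 and 105134 in replicate 1. The tables count whole hairpins, so the share of these reads that carries the 5p seed was not measured.

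The genes nearest in level were found by the distance between log2(CPM + 1) values over the 2 libraries. For Mir30a it was Mir34a, at 8608 CPM in replicate 2 and 8747 CPM in replicate 1, a distance of 0.13. Mir34a was also nearest to Mir30d, at a distance of 0.48, and Mir125a, at 6148 and 9611 CPM in replicates 2 and 1, was nearest to Mir30e, at 0.47. Mir106b was nearest to Mir30c-1, at 0.063, Mirlet7c-2 to Mir30c-2, at 0.084, and Mir378d to Mir30b, at 0.23. Closeness over so few libraries describes the level and little else.

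Other miRNA genes known for a role in heart fibrosis, a process in which miR-30 is also known, were examined as a list of 17. Of the 16 that could be tested, 8 were higher and 2 lower in replicate 2, where 22.6% and 22.8% of all tested genes were. Of the 98 tested genes averaging 1000 counts or more, 42 were higher and 45 lower. The list mixes deep and shallow genes and was not matched for depth. Its median log2 ratio was 0.28, beside 0.14 for the miR-30 hairpins. By mean level the list was led by Mir29a, a repressor of collagens, at 14729 CPM in replicate 2 and 16356 CPM in replicate 1, followed by Mir21a, which promotes fibrosis, at 5632 and 1291 CPM, and Mir214 at 1254 and 2598 CPM. Some markers of other cell types were also higher in replicate 2, among them 5 of the 7 epithelial markers and the smooth muscle Mir143, by 1.53-fold. The epithelial markers included Mir203 by 1.99-fold, Mir200c by 1.65-fold, Mir200b by 4.88-fold and Mir205 with 49 and 0 counts in replicates 2 and 1. Other markers were lower in replicate 2, the leukocyte Mir155 by 1.40-fold and the erythroid Mir451a by 1.60-fold and Mir486 by 1.20-fold. Erythroid Mir144 was 1.75-fold higher, and the leukocyte Mir150, Mir223 and Mir142 were not called. The part of these markers in the list's values was not tested. After TMM scaling, genes of the fibrosis list called at 2-fold or more were all higher in replicate 2. They were Mir21a, by 4.74-fold, Mir29c, by 2.59-fold, Mir26a-2, by 9.68-fold, and Mir26a-1, by 2.23-fold with 30 and 9 counts in replicates 2 and 1. Mir214 was called 1.90-fold lower in replicate 2 at that scaling, while its CPM without TMM differed by more than 2-fold. Mir133a-1 and Mir133a-2, whose miRNA is also known as a repressor of connective tissue growth factor in heart, had 18 and 14 counts in replicate 2 and 14 and 10 in replicate 1. The hairpins of miR-26a, miR-29b, miR-24, miR-133a and miR-199a exist as copies, so their counts carry the same doubt as those of miR-30c.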

How the data were processed

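Per the labels, total RNA of heart was sequenced as microRNA-seq in a size range below 30. The authors deposited raw read counts per miRNA gene in 3 columns, one that ignores strand and one for each strand, below 4 summary lines that name no gene. The text files deposited beside the counts name genome build mm10 and annotation M21. The aligner and counting tool were not given in the sources used here. Reads aligned to several places are in a summary line and belong to no gene, and no arm is told apart. The summary lines, 64.4% of the reads in replicate 2 and 64.1% in replicate 1, stayed out of library sizes and tests.

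The strand column with the larger total was taken as the sense strand. TMM factors came from edgeR 4.0.16 over genes summing to 10 counts or more, and median-of-ratios size factors from DESeq2 1.42.0 served as an alternative. The exact binomial tests and Clopper-Pearson intervals came from scipy 1.17.1. A quasi-likelihood test was not run, since there is only 1 group. The test was checked on simulated counts that held counting error alone, with unscaled totals as library sizes. That check does not cover other spread between libraries, and no result here rests on it. Log2 ratios are replicate 2 over replicate 1, with 1 CPM added, which understates the ratio of low genes. Alternatives were total-count scaling, DESeq2 size factors, no filter, a sum of at least 50 counts, the column that ignores strand, 0.5 CPM added, and all reads of the table as the total.

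The members and lists were chosen with earlier results of these data known. Named genes are all members, genes with the miR-30 5p seed, the nearest gene in level to each detected member, the 3 most abundant genes of the fibrosis list and its members called at 2-fold or more. Cell type markers, Mir133a-1, Mir133a-2 and Mir6958 were named outside this rule, after their values were seen.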

Additional observations from a re-analysis of the deposited data

How the results depend on the processing

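The direction and call of Mir30a, Mir30c-1, Mir30d and Mir30e held under every alternative in which they could be tested; Mir30e, at 0 in the column that ignores strand, could not be tested there. Of 35 log2 ratios of members under alternatives, 31 kept direction and call. The exceptions were Mir30b, with -0.00044 under total-count scaling and with 0.13 under DESeq2 size factors and 0.17 in the column that ignores strand, where it was called in both, and Mir30c-2, with -0.045 and no call in that column. Between 4 and 6 members were called, 4 of 5 tested in the column that ignores strand and 6 of 6 with DESeq2 size factors. Without a filter 5 of 7 were called. Over all genes the calls were 187 of 412 tested in the main setting, 199 of 412 with total-count scaling and 190 of 412 with DESeq2 size factors. They were 174 of 387 in the column that ignores strand, 175 of 282 at a sum of at least 50 counts and 162 of 2202 without a filter. Among genes averaging 1000 counts or more, an alternative chosen after seeing the data, 87 of 98 were called. Total-count scaling moved the median log2 ratio of all tested genes to -0.12, against -0.0077, and split the calls into 79 higher and 120 lower in replicate 2, against 93 and 94; the cause was not tested.

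As a mean over the libraries, the family's share was 0.966% of all reads of the tables and 2.52% of sense counts without Mir30c-1 and Mir30c-2. It was 2.70% of sense counts in either library alone. In the column that ignores strand the mean was 2.68%, but there Mir30e is at 0 and the total is smaller. The members held 113558 of 3784294 counts of that column in replicate 2 and 71227 of 3031431 in replicate 1, a larger share in replicate 2. Mir30e held 0% of its pair with Mir30c-1 in the column that ignores strand, where it is listed at 0, and 88.4% to 94.4% with a library left out. Mir30d held 96.0% to 97.4% of its pair with Mir30b. No paired analysis was possible because the labels give a single group. Since the replicates share a donor entry, the spread printed here cannot be read as a spread between animals, and reads aligned to several places limit what the counts of Mir30c-1 and Mir30c-2 can show.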
